A study of Mus musculus with 5 samples.

Results

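The histone genes measured here are the 30 of 19938 named genes whose symbols follow a rule for core and linker histone genes. They were found by symbol: H1f followed by a digit, or a symbol that begins with H2ac, H2bc, H3c or H4c (the rule also takes the older Hist1h to Hist4h forms, which the array's annotation no longer uses). Only probe sets annotated to exactly 1 gene symbol were taken. Each of the 30 genes had 1 such probe set, so no choice between probe sets was needed. There are 8 linker genes (H1), 4 H2A genes, 9 H2B genes, 3 H3 genes and 6 H4 genes. In the older nomenclature 23 of them belong to the large Hist1 cluster and 4 to the smaller Hist2 cluster, and the other 3 (H1f7, H1f8 and H1f10) lie outside the clusters. A further 36 symbols that follow the rule occur only on probe sets shared by several genes. Those probe sets are described separately.

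The arrays hold RNA from 5 cell populations sorted from bone marrow of untreated wild-type C57Bl/6 mice, with 1 array per population. All populations were lineage-negative and CD115-positive. The monocyte-dendritic cell progenitor (MDP) was CD117+ CD135+, the common dendritic cell progenitor (CDP) CD117int CD135+, and the common monocyte progenitor (cMoP) CD117+ CD135-. Classical monocytes were Ly6C+ TremL4- and nonclassical monocytes Ly6C- TremL4+. No source used here gives the age or number of the mice, or says whether mice were pooled. Without replicate arrays there is no test, no error and no p-value, and every difference below compares 2 arrays, not 2 conditions.

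Canonical histone genes encode the proteins that package DNA. Pairs of H2A, H2B, H3 and H4 form the nucleosome core, and H1 binds the linker DNA between cores. Most canonical histone mRNAs are made in S phase, end in a stem-loop that is bound by SLBP instead of a poly(A) tail, and are degraded when DNA synthesis stops. Histone mRNA is therefore widely used as a sign of cells in S phase. Not every gene taken by the symbol rule is of this kind. H1f10 is replication-independent, and H1f6, H1f7, H1f8, H2ac1 and H2bc1 are testis, spermatid or oocyte genes. Some histone genes, H1f2, H2bc4 and H2bc21 among them, can also give polyadenylated transcripts in cells that have stopped dividing. No source used here says whether cDNA was primed from poly(A) tails, at random positions or both, which bears on how such mRNAs are captured.

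The promoters of the genes on which the results turn are shown first. Whether their motifs bear on the array values was not tested. RefSeq promoters (assembly GRCm38.p6) were matched for 26 of the 30 genes. Each stretch below is the 160 bases before the annotated start, 5′ to 3′ on the strand of the gene. H1f1 (chr13:23763508-23763667, plus strand), H1f5 (chr13:21780626-21780785, minus strand) and H1f2 (chr13:23738647-23738806, plus strand) are linker genes, of which the first pair was low in nonclassical monocytes and H1f2 was not. H2ac4 (chr13:23750928-23751087, plus strand), H2bc14 (chr13:21721884-21722043, plus strand), H4c3 (chr13:23698459-23698618, minus strand) and H4c6 (chr13:23551669-23551828, minus strand) encode core histones with large differences between the monocyte arrays. The last stretch is the 179 bases between the starts of the divergent neighbours H2bc8 and H2ac8 (chr13:23571221-23571399, plus strand), written on the strand of H2bc8. Capitals mark 5 motifs on either strand. They are the CCAAT box, the TATAAA form of the TATA box, the AAACACA element known from H1 promoters, the ATTTGCA part of the octamer known from H2B promoters, and the GCGGAC part of an element known from H4 promoters. None of these motifs is contained in another.
H1f1: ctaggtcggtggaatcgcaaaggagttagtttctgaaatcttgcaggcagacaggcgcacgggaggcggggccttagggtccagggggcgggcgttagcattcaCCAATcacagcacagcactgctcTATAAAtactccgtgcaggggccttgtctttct
H1f5: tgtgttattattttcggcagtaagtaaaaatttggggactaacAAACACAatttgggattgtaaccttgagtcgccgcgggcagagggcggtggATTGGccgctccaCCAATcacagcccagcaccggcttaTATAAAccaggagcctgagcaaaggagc
H1f2: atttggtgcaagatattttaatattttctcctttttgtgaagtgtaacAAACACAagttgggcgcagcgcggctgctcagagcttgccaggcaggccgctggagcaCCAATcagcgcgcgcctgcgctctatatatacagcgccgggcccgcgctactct
H2ac4: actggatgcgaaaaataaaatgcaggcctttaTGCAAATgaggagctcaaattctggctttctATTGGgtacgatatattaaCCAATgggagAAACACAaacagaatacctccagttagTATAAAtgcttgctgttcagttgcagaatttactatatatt
H2bc14: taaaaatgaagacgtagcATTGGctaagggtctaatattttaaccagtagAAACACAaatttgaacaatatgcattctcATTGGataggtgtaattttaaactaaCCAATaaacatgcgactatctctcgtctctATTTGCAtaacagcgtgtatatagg
H4c3: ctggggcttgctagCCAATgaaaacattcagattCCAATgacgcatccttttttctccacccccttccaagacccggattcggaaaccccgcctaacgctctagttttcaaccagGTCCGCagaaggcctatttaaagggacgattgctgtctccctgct
H4c6: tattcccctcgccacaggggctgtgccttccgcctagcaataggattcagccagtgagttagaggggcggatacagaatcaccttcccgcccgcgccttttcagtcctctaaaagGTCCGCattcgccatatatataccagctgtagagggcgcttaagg
H2bc8 and H2ac8: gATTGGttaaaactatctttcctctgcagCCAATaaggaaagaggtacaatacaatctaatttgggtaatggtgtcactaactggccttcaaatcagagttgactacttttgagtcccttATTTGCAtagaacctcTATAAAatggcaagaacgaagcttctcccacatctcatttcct

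In the 250 bases before the start, CCAAT or its reverse complement occurred in 20 of the 26 histone promoters (76.9%), against 33.8% of all 32851 promoters in the table. TATAAA occurred in 14 of them (53.8%, against 12.4% of all). ATTTGCA was in 5 of 7 H2B (71.4%) and 3 of 4 H2A promoters (75%), against 3.56% of all, and in 0 of the H1, H3 and H4 promoters. The H2A and H2B counts are not separate, because divergent neighbours share a stretch. The site of H2ac8 (-127 to -121) is that of H2bc8 (-59 to -53). The sites of H2ac1 (-123 to -117) and H2bc1 (-164 to -158) mirror each other in the same way. Other motifs in such stretches are also counted for both genes. AAACACA was in 4 of 8 H1 promoters (50% against 6.25% of all), but also in 2 of 4 H2A and 2 of 7 H2B promoters. GCGGAC was in 4 of 5 H4 promoters (80% against 7.42% of all), in 1 of 8 H1 promoters and in 1 of 7 H2B promoters. It was also in 2 of 4 H2A promoters, in H2ac8 at -235 to -230, which lies beyond the start of H2bc8. In the H4 promoters of H4c3, H4c6 and H4c9 it occupied bases -45 to -40 on the minus strand, and in H4c4 bases -46 to -41, both counted back from the start. In this orientation and between bases 48 and 37 before the start, a window chosen after these positions were seen, it occurred in 0 of the 21 other histone promoters and in 54 of all promoters (0.164%). Of these 54, 6 belong to H4 genes, out of 12 H4 promoters in the table. These are matches of letters, and no binding was measured.

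The arrays fitted the sort labels where the marker genes were measured. Kit, which encodes CD117, lay between 8.16 and 10.11 in the progenitors and at 5.79 and 5.61 in the monocytes. Flt3 (CD135) was at 10.75 in MDP and 10.74 in CDP and at most 6.74 elsewhere. Treml4 was at 11.78 in nonclassical monocytes and at most 6.18 elsewhere. Array medians over all 35556 probe sets lay between 6.02 and 6.16. A floor of 6.27, the median of all named genes' values, was used to set dim signal aside, and between 9831 and 10167 of the 19938 genes reached it on each array. A call of higher or lower needed a difference of at least 1 log2 unit (2-fold) between 2 arrays, with the brighter one at the floor or above. Of the 30 histone genes, 18 reached the floor on all 5 arrays, 6 on some and 6 on none. The highest and lowest arrays of a histone gene lay a median of 1.69 log2 units apart, against 0.44 over all genes, and 20 of the 24 that reached the floor had a range of at least 1 log2 unit, against 36.7% of genes. The nonclassical value was strictly the lowest of the 5 for 23 of the 30, against 22.8% of all genes. The 23 include H1f3, H2ac8 and H3c7, which lay under the floor on all arrays. Tied values were present in 55.7% of all genes and 20% of the histone genes. The floor was reached on at least 1 array by 11058 of the 19938 genes and 24 of the 30. The 22.8% and the median range of 0.44 therefore come from a dimmer set with more ties. The highest was cMoP or the classical monocyte for 20 of the 24. For the highest array the share over all genes was not counted, so nothing particular to histone genes is read from it.

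**Figure D1:**
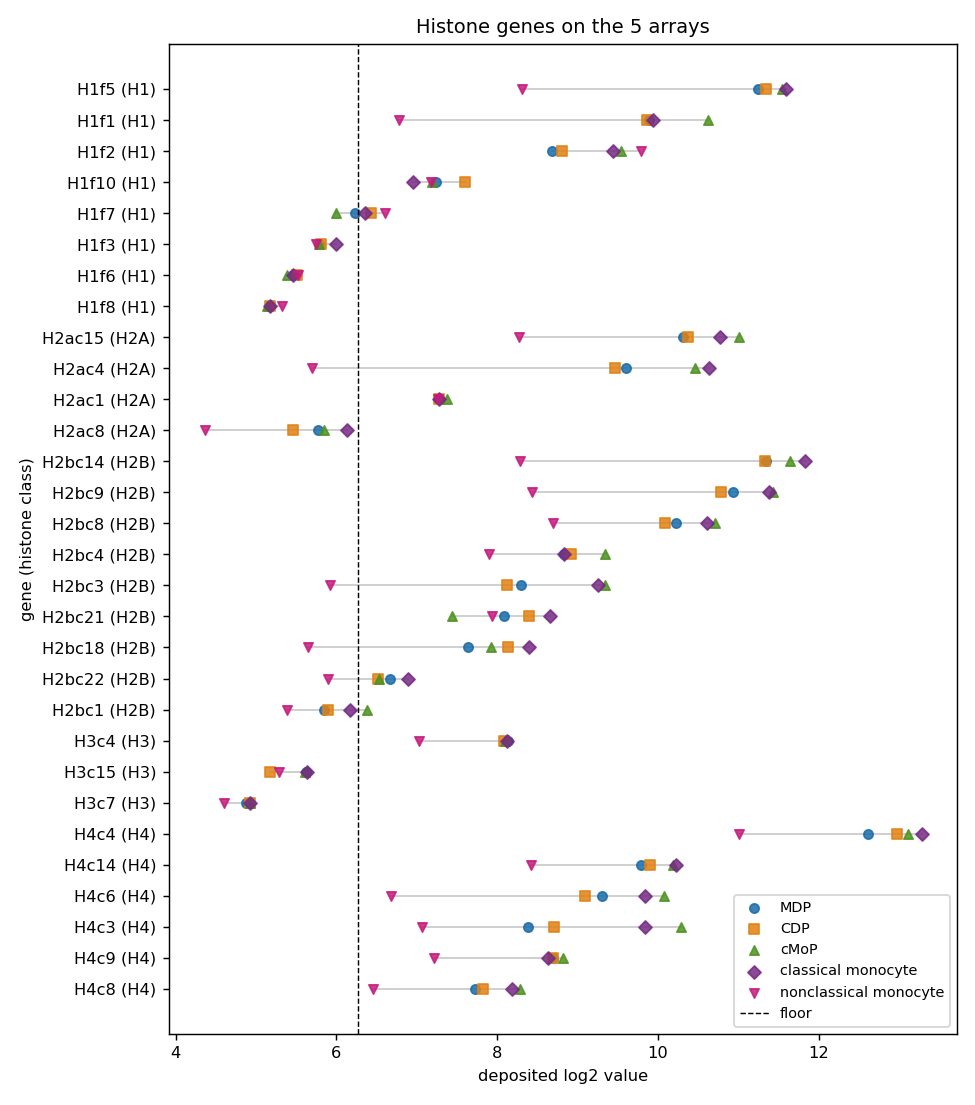
Deposited log2 value (horizontal axis) of each of the 30 histone genes (vertical axis, grouped by class), 1 symbol per array, with the floor of 6.27 as a dashed line and a grey line over each gene's range. The nonclassical monocyte value is the lowest of the 5 for 23 genes, and 6 genes lie under the floor on every array.

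Of the 5 comparisons made, that between the monocyte arrays had the most histone genes past the threshold. Of the 23 histone genes past the floor, 16 were lower in nonclassical than in classical monocytes and 0 were higher, against 9.82% lower and 3.55% higher of the 10503 genes past the floor. The median difference was -1.57 over the 30 histone genes and -1.90 over the 23, where all genes past the floor had -0.09. These genes spanned the core and linker classes, with 6 of 6 H4, 5 of 8 H2B, 2 of 3 H2A, 2 of 5 H1 and 1 of 1 H3 genes past the floor counted as lower. The 7 past the floor that were not counted were H1f2, H1f7, H1f10, H2ac1, H2bc4, H2bc21 and H2bc22. Of the 16, 9 had their highest value in cMoP, 6 in classical monocytes and 1, H3c4, in MDP, with no share over all genes counted beside this. Nonclassical monocytes were not compared with cMoP as a separate count. In a sorted population, fewer cells in cycle and less histone mRNA per cycling cell cannot be told apart.

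Among the linker genes, H1f5 and H1f1 were low in nonclassical monocytes. H1f5 (formerly Hist1h1b), a replication-dependent H1 subtype, had values of 11.24 in MDP, 11.35 in CDP, 11.54 in cMoP, 11.59 in classical and 8.31 in nonclassical monocytes. The first 4 arrays lay within a narrow band, and the nonclassical array was 9.71-fold under the classical one (-3.28). H1f1 (Hist1h1a), a subtype found mainly in dividing and lymphoid cells, had 9.89 in MDP, 9.87 in CDP, 10.62 in cMoP, 9.94 in classical and 6.78 in nonclassical monocytes. It was 8.93-fold lower in nonclassical than in classical monocytes (-3.16), and its highest value was that of cMoP.

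H1f2 (Hist1h1c), a somatic linker histone also found in resting cells, ran the other way. Its values were 8.68 in MDP, 8.81 in CDP, 9.54 in cMoP, 9.44 in classical and 9.79 in nonclassical monocytes. The nonclassical array was thus the highest of the 5 for H1f2, by 1.10 over MDP, while its difference from classical monocytes was only 0.35. H1f10, a replication-independent linker histone, stayed between 6.95 and 7.60. The other linker genes were dim: H1f7, the spermatid linker histone, lay between 6.00 and 6.61, H1f3 between 5.75 and 5.99, the testis gene H1f6 between 5.39 and 5.52 and the oocyte gene H1f8 between 5.14 and 5.32. H1f6 had 5.46 in MDP, 5.51 in CDP, 5.39 in cMoP, 5.46 in classical and 5.52 in nonclassical monocytes. H1f8 had 5.18 in MDP, CDP and classical monocytes, 5.14 in cMoP and 5.32 in nonclassical monocytes. The sperm and egg subtypes thus lay near or under the floor in all 5 populations, and H1f3, a somatic subtype, was also under it.

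The H2A genes gave the largest single difference. H2ac4 (Hist1h2ab) had values of 9.60 in MDP, 9.47 in CDP, 10.46 in cMoP, 10.64 in classical and 5.70 in nonclassical monocytes. Only the nonclassical value was under the floor, so H2ac4 was at least 20.7-fold lower there than in classical monocytes (-4.94). H2ac15 (Hist1h2ak) had 10.31, 10.37, 11.01 and 10.77 in MDP, CDP, cMoP and classical monocytes and 8.27 in nonclassical monocytes, a difference of -2.50 or 5.66-fold.

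H2ac8 (Hist1h2ae) had 5.77 in MDP, 5.46 in CDP, 5.84 in cMoP, 6.13 in classical and 4.36 in nonclassical monocytes. Its difference of -1.77 had the same direction but lay wholly under the floor and was not counted. H2ac1 (Hist1h2aa), a testis H2A gene, was flat, with 7.28 in MDP, CDP and classical monocytes, 7.38 in cMoP and 7.26 in nonclassical monocytes.

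Most H2B genes followed the same pattern. H2bc14 (Hist1h2bm) had 11.34 in MDP, 11.33 in CDP, 11.64 in cMoP, 11.83 in classical and 8.29 in nonclassical monocytes, an 11.6-fold difference between the monocyte arrays (-3.54). H2bc3 (Hist1h2bb) had 8.30, 8.12, 9.34 and 9.25 in MDP, CDP, cMoP and classical monocytes and 5.92 in nonclassical monocytes (-3.33, at least 7.92-fold). H2bc9 (Hist1h2bh) had 10.93, 10.78, 11.43 and 11.38 on the same 4 arrays and 8.43 in nonclassical monocytes (-2.95). In each of these genes all 4 other arrays lay above the nonclassical one by more than the threshold.

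H2bc18 (Hist2h2bb), of the smaller cluster, had 7.64 in MDP, 8.14 in CDP, 7.92 in cMoP, 8.40 in classical and 5.65 in nonclassical monocytes (-2.76, at least 4.4-fold). H2bc8 (Hist1h2bg) had 10.23, 10.09, 10.71, 10.61 and 8.70 in the same order (-1.90). The gene shares the region printed above with H2ac8, whose probe set stayed under the floor. H2bc22 (Hist1h2bp), at 6.67, 6.52, 6.53, 6.89 and 5.90, lay just short of the threshold (-0.99, and -1.08 after centring of the arrays or -1.06 after quantile normalization).

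The H2B genes known for polyadenylated transcripts differed by less than the threshold between the monocyte arrays, as did H2bc22 above, which is not on that list. H2bc4 (Hist1h2bc) had values of 8.83 in MDP, 8.92 in CDP, 9.34 in cMoP, 8.83 in classical and 7.90 in nonclassical monocytes (-0.92, and -1.01 after centring). H2bc21 (Hist2h2be) had 8.09 in MDP, 8.39 in CDP, 7.44 in cMoP, 8.66 in classical and 7.94 in nonclassical monocytes (-0.71). Here the lowest array was cMoP, not the nonclassical monocyte. Together with H1f2 these make 0 of 3 measured genes of this kind counted as lower in nonclassical monocytes, with differences from -0.92 to 0.35 (1 of 3 after centring, which brings in H2bc4). Over all genes past the floor 9.82% were lower. A count of 0 of 3 is near that share, and nothing particular to these genes is read from it. The testis gene H2bc1 (Hist1h2ba) reached the floor only in cMoP, with 5.84, 5.90, 6.38, 6.17 and 5.38 in the usual order.

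Single H3 genes were poorly represented, because most H3 probe sets are shared. H3c4 (Hist1h3d) had 8.13 in MDP, 8.09 in CDP, 8.10 in cMoP, 8.12 in classical and 7.03 in nonclassical monocytes. The first 4 arrays nearly coincided, and the nonclassical one was 2.13-fold lower (-1.09, but -0.99 after quantile normalization, which ends the call). H3c7 (Hist1h3f) had 4.87 in MDP, 4.92 in CDP, cMoP and classical monocytes and 4.60 in nonclassical monocytes, and H3c15 (Hist2h3c2) lay between 5.18 and 5.64. Both stayed under the floor on every array.

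All 6 H4 genes were lower in nonclassical monocytes. H4c6 (Hist1h4f) had 9.30 in MDP, 9.09 in CDP, 10.08 in cMoP, 9.84 in classical and 6.68 in nonclassical monocytes (-3.16, 8.93-fold). H4c3 (Hist1h4c) had 8.38, 8.71, 10.29 and 9.84 on the first 4 arrays in that order and 7.06 in nonclassical monocytes (-2.78, 6.85-fold). These are also the H4 genes with the largest differences between cMoP and the other progenitors.

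H4c4 (Hist1h4d) had 12.61 in MDP, 12.97 in CDP, 13.11 in cMoP, 13.28 in classical and 11.01 in nonclassical monocytes (-2.27). H4c14 (Hist2h4) had 9.79, 9.90, 10.19, 10.23 and 8.42 (-1.81), and H4c8 (Hist1h4h) 7.73, 7.83, 8.28, 8.19 and 6.46 (-1.73). H4c9 (Hist1h4i) had 8.70, 8.69, 8.82, 8.63 and 7.21, the smallest difference of the class at -1.42. Unlike the H1 class, the H4 class held no gene that was level between the monocyte arrays.

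**Figure D2:**
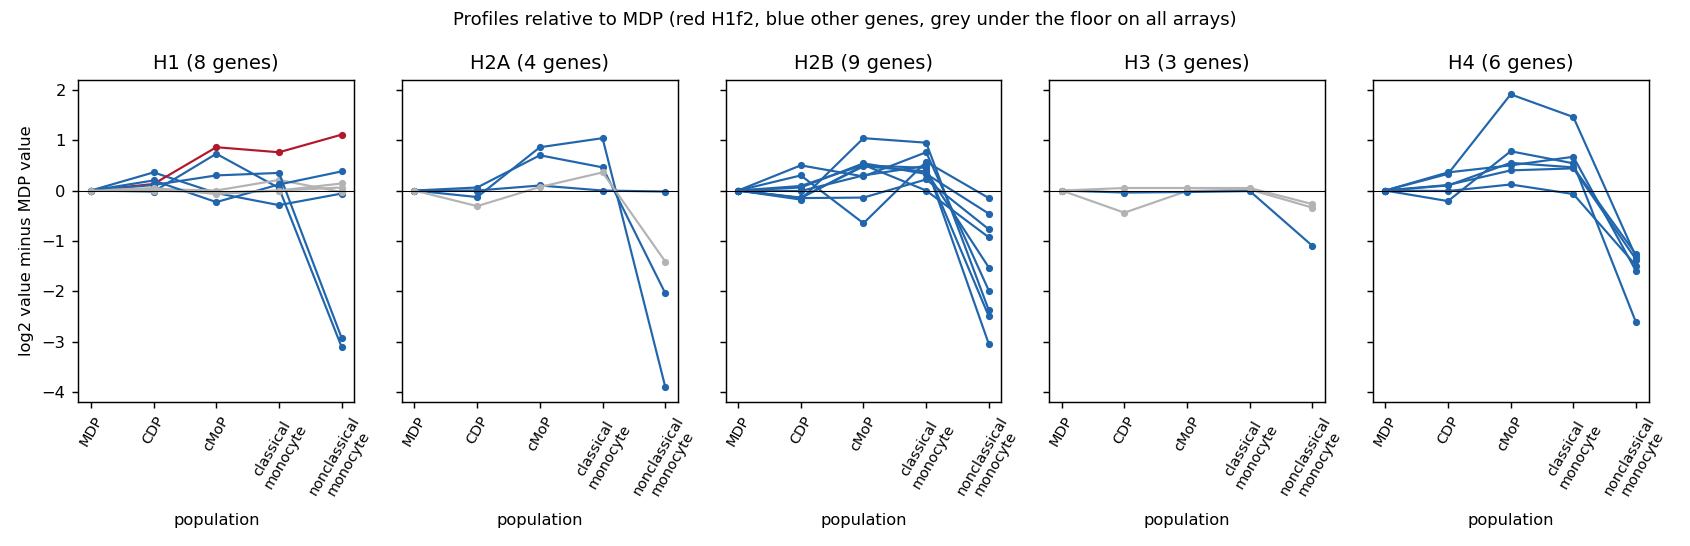
Log2 value minus the MDP value (vertical axis) over the 5 populations (horizontal axis), 1 line per gene and 1 panel per histone class. Most lines drop at the nonclassical monocyte, down to 4.94 log2 units under the classical monocyte for H2ac4, while H1f2 (red) ends 1.10 above MDP and grey lines mark the 6 genes under the floor on all arrays.

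Set against all 4 other arrays at once, a rule added after the values were seen, 16 of the 22 histone genes at or above the floor on those 4 arrays were at least 1 log2 unit lower in nonclassical monocytes than on each of them. The same held for 7.68% of the 9223 genes that could be counted. The 16 were the same genes as those counted as lower against classical monocytes. Of 22 histone genes that could be counted, 0 were higher in all 3 progenitors than in both monocyte arrays by that margin, and of 19 that could be counted 0 were higher in both monocyte arrays. These counts lie near the shares over all genes, 0.892% and 2.8%, and nothing particular to histone genes is read from them.

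From cMoP to the classical monocyte, 0 of the 24 histone genes past the floor were lower and 1 was higher. Over all genes past the floor 4.4% were lower and 7.01% higher, so these counts are near the background. The gene counted was H2bc21, at 7.44 in cMoP and 8.66 in classical monocytes, 2.33-fold higher (1.22). The median difference of the 30 genes was 0.01, and it was -0.04 after centring and -0.05 after quantile normalization. Over the 24 past the floor it was -0.09. H1f1 had the most negative difference (-0.68), followed by H2bc4 (-0.52) and H4c3 (-0.46), and H2bc18 had the second most positive (0.49).

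Between the progenitors the differences were smaller and mostly pointed to higher values in cMoP. Against MDP, 2 of 23 histone genes past the floor were higher in cMoP and 0 lower, where 1.44% of all genes were higher and 1.4% lower. H4c3 was 3.76-fold higher (1.91) and H2bc3 2.06-fold higher (1.04). H1f2 and H2ac4 (both 0.86) and H4c6 (0.78) came close to the threshold. In all, 21 of the 30 genes had a higher value in cMoP than in MDP, 8 had a lower one and 1 was equal, with a median of 0.30. Of all 19938 genes, 8841 were higher, 6759 lower and 4338 equal. Among the 24 histone genes that reached the floor on any array, 19 were higher and 5 lower, but this split was not counted over all genes that reached it. H2bc21 had the most negative difference (-0.66).

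Compared with CDP, cMoP had 2 of 24 genes higher and 0 lower, against 3.23% and 2.2% of all genes. They were again H4c3 (1.59) and H2bc3 (1.22), and the comparisons share the cMoP array. H2ac4 and H4c6 (0.99) lay just under the threshold and passed it after centring (1.11 and 1.10), which gave 4 genes in all. Over the 30 genes 22 were higher, 7 lower and 1 equal, with a median of 0.30. Of all 19938 genes, 7173 were higher, 8718 lower and 4047 equal. Among the 24 histone genes that reached the floor on any array, 20 were higher and 4 lower, again without such a split over all genes beside it. The 2 genes counted here and against MDP are too few to set apart from the shares over all genes. With shared histone probe sets added, the median was 0.20 against CDP and 0.50 against MDP. The shared H3 probe sets were higher in cMoP than in CDP by 0.11 to 0.20, and the shared H2B ones by 0.35 to 0.51. H2bc21 was lower in cMoP by a difference of -0.95.

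Centring moves the median of all genes past the floor from 0.00 to 0.11 in cMoP against MDP and from 0.02 to 0.13 in cMoP against CDP. The histone medians moved with it, from 0.30 to 0.41 in both, and those of the histone genes past the floor were 0.50 and 0.37 before centring. The split of all higher against lower genes, 147 to 143 and 337 to 230, became 196 to 106 and 468 to 182.

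Between CDP and MDP, 0 of 23 histone genes were counted in either direction, where 1.15% of genes were higher and 1.06% lower. The differences ran from -0.43 (H3c15, under the floor) to 0.49 (H2bc18), with a median of 0.04. Some genes were nearly level, such as H2bc14 (-0.01), H2ac15 (0.06) and H1f5 (0.11). Others differed more, such as H4c4 (0.36), H4c3 (0.32) and H4c6 (-0.20). In all, 16 of the 30 genes were higher in CDP, 12 lower and 2 equal. Of the shared probe sets described below, the 10 of H3 were all higher in CDP, by 0.42 to 0.49, and the 7 of H2B differed by -0.02 to 0.06.

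The probe sets shared by several histone genes give the sum of near-identical copies, and the single-gene values above can also carry signal from such copies. There were 26 shared probe sets, 24 of them with distinct values. All 26 were lower in nonclassical than in classical monocytes by at least 1 log2 unit, and 25 were above the floor on every array. The 10 shared H3 probe sets, each annotated to the same 12 H3 genes, ran from 11.92 to 12.06 in MDP, 12.35 to 12.50 in CDP, 12.53 to 12.62 in cMoP, 12.65 to 12.75 in classical and 8.61 to 9.07 in nonclassical monocytes. Their differences between the monocyte arrays ran from -4.14 to -3.58, while H3c4, with its own probe set, had only -1.09.

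The 7 shared H2B probe sets had differences from -2.99 to -2.39 with a median of -2.81. The shared H4 probe sets, 6 in all, ran from -2.22 to -1.28, the last from a pair of genes (H4c17 and H4c11) that stayed under the floor. A pair of probe sets annotated mostly to H2A genes had -2.17 and -1.73. Both are also annotated to H3c4, H2ax and H2af-ps2, and the one at -1.73 to H2aj as well. Their values are therefore not those of canonical H2A copies alone. The probe set of H1f4 and H2bc6 had 7.77 in MDP, 7.68 in CDP, 8.05 in cMoP, 8.19 in classical and 6.82 in nonclassical monocytes (-1.37). Since such probe sets share targets, they do not count as separate genes.

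**Figure D3:**
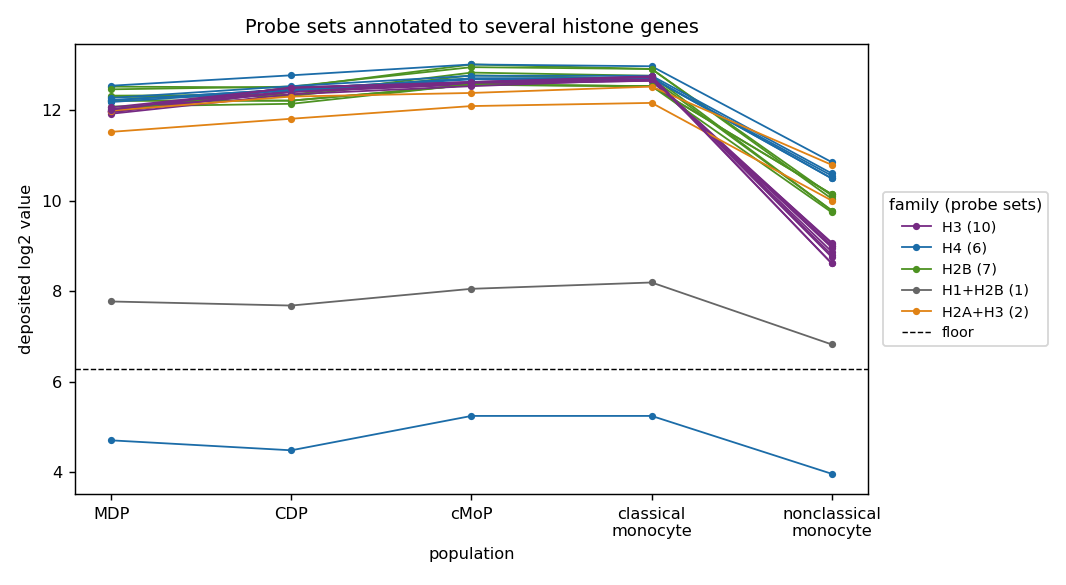
Deposited log2 value (vertical axis) of the 26 probe sets annotated to several histone genes on the 5 arrays (horizontal axis), 1 line per probe set, coloured by family, with the floor of 6.27 dashed. The 10 H3 lines nearly coincide and end between 8.61 and 9.07 in nonclassical monocytes, under the H2B and most H4 lines.

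The list of histone variants had 9 measured genes, of which 8 lie outside the symbol rule and H1f10 is also one of the 30 histone genes above. H2ax, the variant phosphorylated at DNA breaks, had 11.13 in MDP, 11.46 in CDP, 10.67 in cMoP, 10.93 in classical and 7.20 in nonclassical monocytes (-3.73). Cenpa, the centromeric H3 variant, had 10.13, 10.52, 10.16, 10.50 and 7.78 (-2.72), and H2az2 had 10.22, 10.67, 10.22, 10.39 and 8.55 (-1.85). These 3 of the 7 past the floor (H1f10 among the 7) were counted as lower in nonclassical monocytes, and 0 were higher. Of all genes past the floor, 9.82% were lower and 3.55% higher.

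The other variants differed less or were dim. H2az1 had 12.95 in all 3 progenitors, 13.06 in classical and 12.25 in nonclassical monocytes (-0.81). Macroh2a1, which marks silent chromatin, stepped down along the arrays, with 11.99 in MDP, 11.51 in CDP, 11.33 in cMoP, 10.43 in classical and 9.58 in nonclassical monocytes. H2aj lay between 10.11 and 10.28, Macroh2a2 between 5.59 and 6.41, and the single-symbol probe set of H3f3a was at 5.67 on all 5 arrays.

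Genes that make, carry or process histones were listed separately, and 29 of the 32 on that list were measured. In nonclassical against classical monocytes 11 of 27 past the floor were lower and 0 higher, with a median of -0.74. Over all genes past the floor 9.82% were lower and 3.55% higher, with a median of -0.09. Anp32e, a chaperone of the H2A.Z variant, had -2.68, Chaf1a, a subunit of the assembly factor CAF-1, -2.44, Mms22l, which acts with Tonsl at replication forks, -2.32, and Asf1b, a chaperone of H3 and H4, -2.26. Slbp, Npat and Hinfp are named for their roles in histone expression, after their values were seen. Slbp, the stem-loop binding protein, had values of 9.36 in MDP, 9.64 in CDP, 9.44 in cMoP, 9.42 in classical and 8.26 in nonclassical monocytes (-1.16). Npat, the coactivator of histone gene transcription, was at 8.41, 8.16, 7.86, 7.59 and 7.46 and differed by only -0.13 between the monocyte arrays, and Hinfp, the H4 promoter factor, by -0.37.

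The list had 0 genes past the threshold in the other 4 comparisons. Its medians there were -0.20 for CDP against MDP, -0.10 for cMoP against MDP (0.02 after centring), 0.03 for cMoP against CDP and -0.31 for the classical monocyte against cMoP.

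Genes of the cell cycle gave the setting for the histone values. DNA replication genes had 22 of 30 lower in nonclassical than in classical monocytes and 0 higher, with a median of -1.99. Rrm2, a subunit of ribonucleotide reductase, had -4.04, Prim1, a primase subunit, -3.50, Rrm1 -3.25 and Cdc45, a part of the replicative helicase, -3.12. Mitosis genes had 20 of 20 lower with a median of -4.32, among them the kinesin Kif11 (-6.18), the cyclin Ccnb2 (-5.30), the checkpoint kinase Bub1 (-5.26) and Birc5 (-5.14). The part of cell division in the histone differences was not tested.

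From cMoP to the classical monocyte these lists differed in sign. No DNA replication gene of the 30 passed the threshold, but 27 had a negative difference, and the median was -0.57. Mitosis genes had 0 of 20 past it and a median of 0.11. The histone median was 0.01 over the 30 histone genes and -0.09 over the 24 past the floor. In cMoP against CDP the replication median was 0.23 and the mitosis median -0.22, with the histone median at 0.30. There 2 of 20 mitosis genes were lower, Mki67 (-1.04) and Cenpf (-1.01), and 0 after centring. Over all genes past the floor 2.2% were lower before centring.

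**Figure D4:**
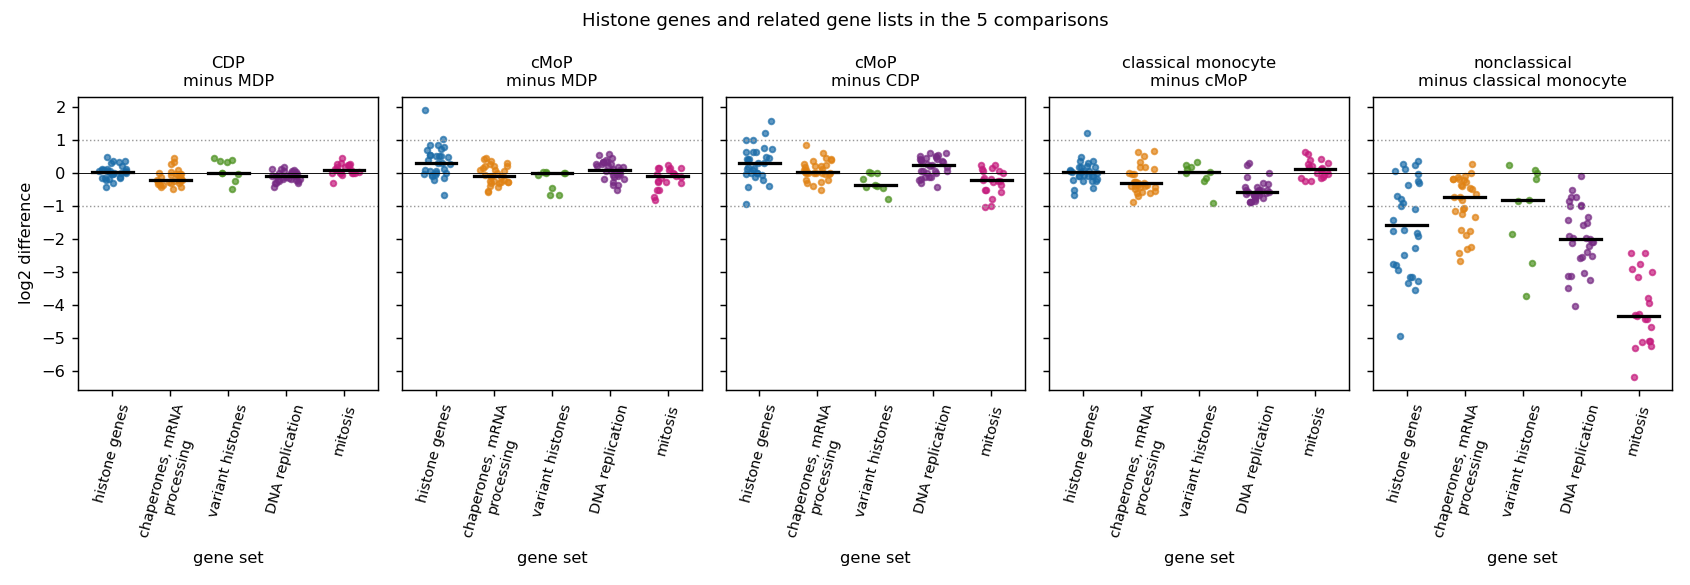
Log2 difference (vertical axis) of every measured gene in 5 gene sets (horizontal axis) for the 5 comparisons, with the median as a black bar and dotted lines at 1 log2 unit either way. In the nonclassical against classical panel the medians are -1.57 for histone genes, -0.74 for chaperones and mRNA processing, -0.81 for variants (with H1f10, which is in both sets), -1.99 for DNA replication and -4.32 for mitosis.

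Marker lists of other marrow cells were read beside the monocyte contrast. Neutrophil genes had 4 of 7 past the floor lower in nonclassical monocytes, namely Mmp8 (-6.97), S100a8 (-4.79), S100a9 (-3.89) and Cd177 (-2.99). The share over all genes past the floor was 9.82%. The median of the 10 neutrophil genes was 6.15 in MDP, 6.24 in CDP, 6.59 in cMoP, 6.97 in classical and 6.42 in nonclassical monocytes, and 7 of 10 reached the floor in classical monocytes. Ltf, a neutrophil granule gene, was between 4.63 and 4.94 on all arrays, and S100a8 and S100a9 are also genes of classical monocytes. Set against cMoP, the classical monocyte array had 5 neutrophil genes counted as higher and 0 as lower, out of 7 bright enough to count. The 5 were Mmp8 (4.26), S100a9 (3.66), Cd177 (2.99), Ngp (1.53) and S100a8 (1.41). Camp (0.60) and Cebpe (-0.20) stayed within the threshold. Over all genes past the floor 7.01% were higher in the classical monocyte than in cMoP and 4.4% lower. The part of neutrophil genes in the histone differences was not tested. Erythroid genes reached the floor in at most 2 of 7, with medians from 5.77 to 6.02, T and NK cell genes in 0 of 6, with medians from 4.19 to 4.35, B cell genes in 2 or 3 of 7, with medians from 5.47 to 5.54, and macrophage genes in 1 or 2 of 8, with medians from 5.27 to 5.54. These medians hide single bright genes. The B cell genes Cd79b (8.41 to 9.50) and Vpreb1 (6.45 to 6.98) were above the floor on all 5 arrays, and Cd79b was lower in classical monocytes than in cMoP (-1.09). The macrophage gene Hmox1 was at 9.84 on both monocyte arrays. Of the erythroid, T and NK, B cell and macrophage lists, 1 gene was counted between the monocyte arrays. It was the macrophage gene Adgre1, higher in nonclassical monocytes (1.60), where 3.55% of all genes were higher.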

How the data were processed

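RNA from 5 sorted mouse bone marrow populations was hybridized to 1 array each. RNA was extracted with RNAqueous-Micro and labelled with the Nugen Encore Biotin kit, per the labels' protocols. The authors deposited log2 values, 1 per array for 35556 probe sets. That scale was inferred from their range (1.59 to 14.24), and another base would change every fold. No source used here gives the base, background correction, normalization or genome build. Genes were named from the platform annotation: 21789 probe sets carry 1 symbol, 1621 several and 12146 are not listed there. All 30 histone symbols were matched by Entrez identifier to RefSeq. Other genes with several probe sets took the one with the highest mean. In 55.7% of genes, and 6 of the 30 histone genes, values of 2 or more arrays are exactly tied. Folds with the lower value under the floor were computed against the floor and are given as at least that size. The number of arrays limits the precision. Genes are named where they were called, ranged over 1 log2 unit, or were the highest or lowest of a class. The polyadenylated, testis and variant genes are named too, with at most 4 called genes of each further list. More are named for the neutrophil list, and Vpreb1 for the B cell list. Members and lists were chosen with earlier results of these data known. Python 3.11.15, pandas 2.3.3, numpy 2.4.6 and matplotlib 3.10.9 were used.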

Additional observations from a re-analysis of the deposited data

How the results depend on the processing

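No paired analysis was possible because each population has 1 array, and for the same reason no array could be left out. The result that nonclassical monocytes had 16 histone genes lower than classical monocytes gave 18 after centring of each array on its median, 16 after quantile normalization (15 of them shared), 17 without a floor, 16 with a floor of 7.93 (the upper quartile) and 19 at a 1.5-fold threshold. Adding the 17 of the 26 shared probe sets whose symbols all follow the rule (10 of H3, 6 of H4 and that of H1f4 and H2bc6, with none of the H2B or H2A ones) gave 32 of 47 lower with a median of -2.16, 31 in place of 16 under each of the 4 other arrays in nonclassical monocytes, 36 in place of 20 with a range of at least 1 log2 unit and a median range of 2.16 in place of 1.69. Most of the added probe sets share target genes with each other and with genes already counted. The 47 are therefore not separate genes, and these counts and medians weigh the same genes repeatedly. The 1.5-fold threshold gave 7 higher and 1 lower in cMoP against MDP, 9 and 1 in cMoP against CDP and 1 lower in the classical monocyte against cMoP, and centring gave 4 higher in cMoP against CDP. The other alternatives left these counts within 1.5 times, and the medians moved by at most 0.2. Over all genes, the 1.5-fold threshold gave 427 higher and 638 lower genes in CDP against MDP (120 and 110 as reported), 565 and 564 in cMoP against MDP (147 and 143), 1252 and 713 in cMoP against CDP (337 and 230), 1421 and 1265 in the classical monocyte against cMoP (722 and 453) and 846 and 2274 in nonclassical against classical monocytes (373 and 1031). The floor of 7.93 left 61, 73 and 149 lower in the first 3. Averaging a gene's probe sets and counting genes of identical values once could not change a histone count, since 0 histone genes had several probe sets or shared values. Counting genes of identical protein once was not run, because no protein table was used here. Probe sets under the floor give no order, and cross-signal between near-identical copies limits every single-gene value.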
